A study of Callithrix jacchus with 20 samples.

Results

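Pre-ME, the precursors of mesendoderm-like cells from which marmoset primordial germ cell-like cells are induced, were made from 1 iPSC line of the common marmoset (Callithrix jacchus), DPZ_cjiPSC#2, that had been kept in either of 2 media. TESR is TeSR-E8, a commercial medium for primed pluripotent cells, and cjPSCM is an N2B27-based medium with CHIR, the SRC kinase inhibitor A419259, the WNT inhibitor IWR-1, vitamin C, LIF, TGFβ and FGF2. All pre-ME cultures received 3 μM CHIR, a GSK3 inhibitor that activates WNT signalling, and the ROCK inhibitor Y-27632 for 24 h on vitronectin, either together with 100 ng/ml Activin A (+ ActA) or without it (− ActA). Each of the 4 groups (TESR − ActA, TESR + ActA, cjPSCM − ActA, cjPSCM + ActA) had 2 libraries of poly(A) RNA, which the labels call biological replicates, so that 8 of the 20 libraries of the series entered the comparison. The question was which genes respond to ActA differently in pre-ME of the 2 starting media. For each gene the difference was computed as the ActA effect in TESR pre-ME minus the ActA effect in cjPSCM pre-ME, on a log2 scale, and a positive value means a more positive effect in TESR pre-ME.

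Activin A and NODAL bind type I and type II serine/threonine kinase receptors, which phosphorylate SMAD2 and SMAD3. With SMAD4 and partners such as FOXH1, these proteins activate genes of the primitive streak, mesoderm and endoderm, and also inhibitors of the pathway such as LEFTY proteins and SMAD7. In primed pluripotent cells the same pathway keeps NANOG transcribed, whereas together with WNT signalling it drives the exit into mesendoderm.

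The 8 libraries had 8193936 to 22067099 counts on genes, the cjPSCM libraries being the shallower ones, and 15491 of 25102 genes had enough counts for the test. Over genes, replicates of the same group differed on the log2 scale with an SD of 0.318 and 0.335 in TESR − ActA and + ActA, and of 0.455 and 0.461 in cjPSCM − ActA and + ActA. The cjPSCM + ActA libraries had the lowest TMM scaling factors, 0.925 and 0.935, against 0.986 to 1.05 in the other 6. The part of this in the results was not tested beyond a fit with DESeq2 size factors, given with the alternatives below. TBXT, the defining gene of the primitive streak, had 3 counts or fewer in all 4 cjPSCM libraries, against 17 to 101 counts in the TESR libraries, so that the name pre-ME rests on other genes in cjPSCM. These are bulk samples, in which a change in the share of a cell type and a change in RNA per cell cannot be told apart.

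ActA changed many of the same genes in both media. In TESR pre-ME, 647 genes were higher (4.18% of the genes tested) and 455 lower (2.94%) with ActA, where a call needed an adjusted p under 0.05 together with a change of more than 1 on the log2 scale. In cjPSCM pre-ME, 870 were higher (5.62%) and 560 lower (3.62%). In all, 577 genes were called in both media, which is 52.4% of the calls in TESR and 40.3% of those in cjPSCM. Of these, 572 moved the same way. The 5 exceptions were ADM, BMP2, CFTR and GDF3, which were higher with ActA in TESR and lower in cjPSCM, and CD247, which did the reverse. CFTR and CD247 are named after their values were seen. Across the genes tested, which are not independent replicates, the effects in the 2 media had a correlation of 0.608. They share no library.

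The interaction was called for 2513 genes (16.2%) by edgeR's quasi-likelihood test at an adjusted p under 0.05. The ActA effect was more positive in TESR pre-ME for 1334 of them (8.61%) and more positive in cjPSCM pre-ME for 1179 (7.61%), and the difference exceeded 1 on the log2 scale for 496. This count changed widely with the libraries in the fit. Without replicate 1 of cjPSCM + ActA 132 genes were called, without replicate 1 of cjPSCM − ActA 4351, without replicate 2 of cjPSCM − ActA 2652 and without replicate 2 of cjPSCM + ActA 1923. Omitting either TESR − ActA library left 714 (replicate 1) or 362 (replicate 2), and omitting a TESR + ActA library left 641 (replicate 1) or 1094 (replicate 2). In a fit on all 20 libraries, whose common dispersion was 0.0203 against 0.00757 here, 63 of 15797 genes were called (0.399%), and all 63 were among the 2513 (0.407% of the 15491). A core of 120 genes was called with every library omitted in turn, and 35 of these were called in the fit on 20 libraries as well.

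**Figure D1:**
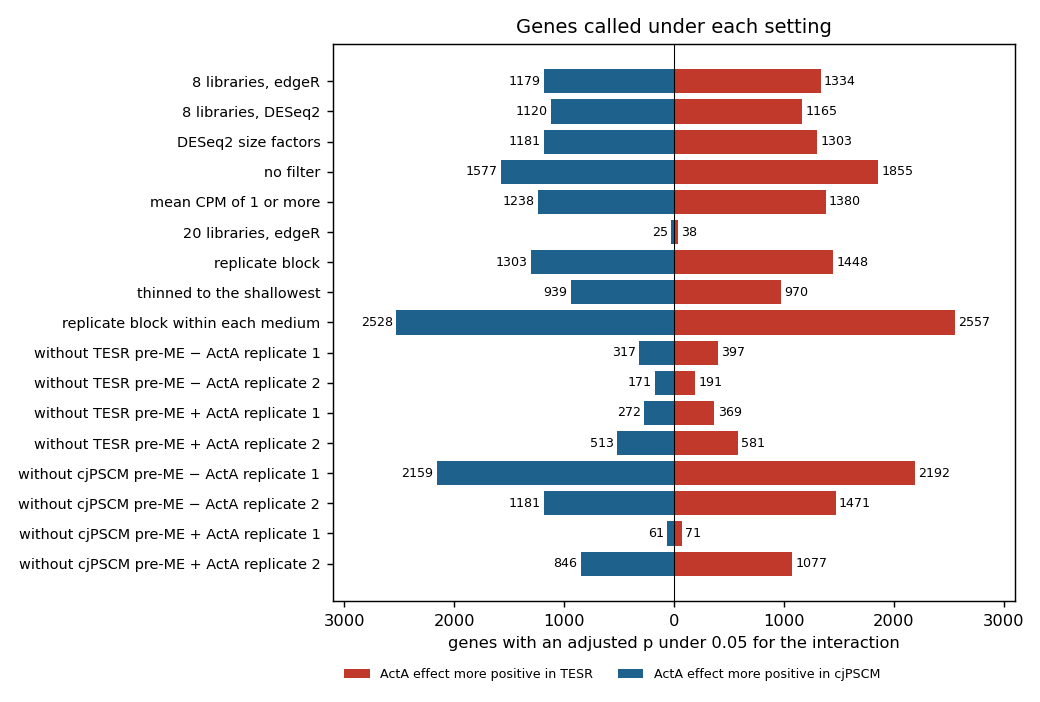
Number of genes called in the interaction (x axis, adjusted p under 0.05) under each setting, with genes whose ActA effect was more positive in TESR pre-ME to the right and in cjPSCM pre-ME to the left. The bars run from 38 and 25 genes with 20 libraries, and 71 and 61 without replicate 1 of cjPSCM + ActA, to 2557 and 2528 with a replicate block within each medium.

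The interaction genes were sorted by their effects. A gene counts as called in 1 medium only where it passed both thresholds there, while in the other medium its adjusted p was 0.05 or more and its log2 fold change under 1. Opposite genes had an adjusted p under 0.05 in both media with different signs. By this rule 102 genes were called in TESR only, 60 higher (0.387%) and 42 lower (0.271%) with ActA. In cjPSCM only, 226 were called, 123 higher (0.794%) and 103 lower (0.665%). Among the 110 opposite genes, 65 rose in TESR and fell in cjPSCM (0.42%), and 45 did the reverse (0.29%). Of the 438 genes, 68 were called in the interaction with every library omitted in turn, and 45 were called in the fit on 20 libraries. A missed p in the other medium does not show that ActA had no effect there. Its 95% interval lay within 1 of 0 on the log2 scale for 47 of the 60, 35 of the 42, 97 of the 123 and 87 of the 103 genes.

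**Figure D2:**
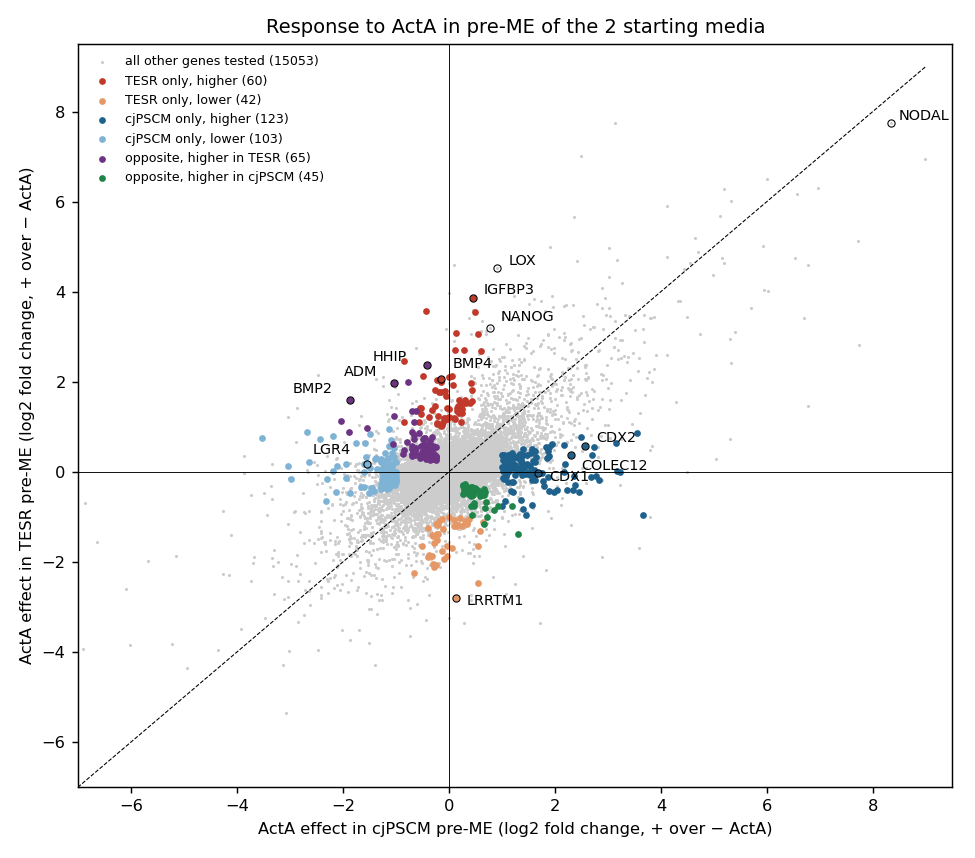
ActA effect (log2 fold change, + over − ActA) in cjPSCM pre-ME on the x axis and in TESR pre-ME on the y axis for 15491 genes, with the genes called in 1 medium only or in opposite directions in colour, named genes circled and equal effects on the dashed line. NODAL lies near the dashed line at 8.34 and 7.74, whereas IGFBP3 (0.44 and 3.87) lies near the vertical axis and CDX1 (1.69 and -0.04) near the horizontal one.

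NANOG, a core transcription factor of pluripotency, rose in both media, but far more in TESR pre-ME. In TESR pre-ME it had 117 and 119 normalised counts without ActA and 1052 and 1106 with ActA. In cjPSCM pre-ME it had 758 and 988 without ActA and 1406 and 1581 with ActA. All 4 groups were thus separate, and the lowest was TESR − ActA. The log2 fold change was 3.19 (SE 0.14) in TESR and 0.77 (SE 0.12) in cjPSCM, and the difference was 2.42 (SE 0.18, adjusted p = 0.000289 by edgeR). It was called with every library omitted in turn and in the fit on 20 libraries (adjusted p = 0.0114).

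Among the genes called in TESR only and higher with ActA were signals and lineage factors. BMP4, the ligand that patterns mesoderm and later induces germ cells, had 353 and 224 normalised counts in TESR − ActA and 1404 and 1011 in TESR + ActA. In cjPSCM it had 702 and 833 without ActA and 712 and 681 with ActA. The ranges of the cjPSCM groups overlapped, and both lay between those of the TESR groups. The log2 fold change of BMP4 was 2.06 (SE 0.20) in TESR and -0.14 in cjPSCM (95% interval -0.59 to 0.30), a difference of 2.21 (SE 0.29, adjusted p = 0.00565 by edgeR, and 0.0593 in the fit on 20 libraries).

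GATA6, a transcription factor of endoderm and mesoderm, behaved alike. It had 132 and 82.8 normalised counts in TESR − ActA and 582 and 337 in TESR + ActA, against 421 and 388 in cjPSCM − ActA and 459 and 350 in cjPSCM + ActA. Only TESR − ActA stood apart. Its difference was 2.10 (SE 0.37, adjusted p = 0.00996 by edgeR, and 0.0227 with 20 libraries). KLF5, a factor of epithelial and pluripotent cells, rose from 59.8 and 35.6 to 229 and 163 normalised counts in TESR and had 180 and 230 without and 167 and 183 with ActA in cjPSCM. Its difference was 2.28 (SE 0.34, adjusted p = 0.00643 by edgeR, and 0.0562 with 20 libraries). The calls of GATA6 and KLF5 were lost without replicate 1 of cjPSCM + ActA, and that of BMP4 was kept with every library omitted.

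IGFBP3, which binds insulin-like growth factors, had the lowest adjusted p of these genes. Its normalised counts were 42.8 and 35.1 in TESR − ActA, 408 and 727 in TESR + ActA, 246 and 315 in cjPSCM − ActA, and 382 and 381 in cjPSCM + ActA. It differed by 3.42 (SE 0.37, adjusted p = 0.00329 by edgeR, and 0.122 with 20 libraries). SLC6A15, a transporter of neutral amino acids, had 66.4 and 74.4 normalised counts in TESR − ActA and 215 and 236 in TESR + ActA, but 73.3 to 80.2 in all 4 cjPSCM libraries. Without ActA the media were alike here, and TESR + ActA alone stood apart (difference 1.74, SE 0.21, adjusted p = 0.00433 by edgeR, and 0.047 with 20 libraries). The differences of FZD8, a receptor of WNT ligands, and PMAIP1, a p53 target that promotes apoptosis, were 1.08 (SE 0.15) and 1.93 (SE 0.27), both with an adjusted p of 0.00622 by edgeR and both also called with 20 libraries. These 4 genes were called with every library omitted in turn.

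The genes called in TESR only and lower with ActA included genes of neurons and signalling. LRRTM1, a synaptic adhesion protein, had 31.3 and 33.2 normalised counts in TESR − ActA and 2.19 and 6.90 in TESR + ActA. In cjPSCM all 4 libraries stood far above these, with 298 and 320 without and 280 and 403 with ActA. Its log2 fold change was -2.80 (SE 0.40) in TESR and 0.12 in cjPSCM (95% interval -0.31 to 0.55), a difference of -2.92 (SE 0.45, adjusted p = 0.00705 by edgeR, and 0.0154 with 20 libraries). PLPP3, a phosphatase of lipid signals, fell from 224 and 228 to 103 and 105 in TESR and had 174 to 259 normalised counts in cjPSCM. RAPGEF5, an exchange factor for RAP proteins, fell from 86.1 and 76.7 to 21.3 and 29.2 in TESR and had 166 to 202 in cjPSCM. The differences were -1.47 (SE 0.18) and -1.74 (SE 0.26), and all 3 genes were called with every library omitted and with 20 libraries. SOGA3 and DRAXIN, a guidance cue for axons, differed by -1.48 and -1.31 and lost their calls without replicate 1 of cjPSCM + ActA.

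In the genes called in cjPSCM only and higher with ActA were the caudal factors CDX1 and CDX2, which mark the posterior streak and control HOX genes. CDX1 had 860 and 937 normalised counts in TESR − ActA, 727 and 1028 in TESR + ActA, 199 and 147 in cjPSCM − ActA, and 678 and 449 in cjPSCM + ActA. CDX2 had 336 and 213, 445 and 373, 27.7 and 29.7, and 197 and 139 in the same order of groups. For both genes cjPSCM − ActA was the low group, and the cjPSCM + ActA libraries stayed below every TESR library. The difference was -1.73 for CDX1 (SE 0.30, adjusted p = 0.00958 by edgeR, and 0.0206 with 20 libraries) and -2.0 for CDX2 (SE 0.36, adjusted p = 0.0109, and 0.065 with 20 libraries). Both calls were lost without replicate 1 of cjPSCM + ActA.

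COLEC12, a scavenger receptor with a collagen domain, had 173 and 186 normalised counts in cjPSCM − ActA and 970 and 798 in cjPSCM + ActA, and 1801 to 2931 in the TESR libraries. Its difference of -1.94 (SE 0.24, adjusted p = 0.00433 by edgeR, and 0.0114 with 20 libraries) was called with every library omitted. TBX3, a T-box factor of amnion and mesoderm, was instead higher in cjPSCM throughout, with 65.4 and 61.4 without and 186 and 202 normalised counts with ActA, against 13.8 to 25.2 in TESR. TBX3 differed by -1.67 (SE 0.40, adjusted p = 0.0243 by edgeR, and 0.0968 with 20 libraries) and lost its call without replicate 1 of TESR − ActA, replicate 2 of TESR + ActA, or either cjPSCM + ActA library. MAP7D1, a microtubule-associated protein, OPN1SW, the gene of the short-wave cone opsin, the collagen COL26A1 and PLEKHO1 had differences of -1.13, -2.86, -1.13 and -1.10. They were called with every library omitted but not with 20 libraries (adjusted p = 0.126, 0.0977, 0.0563 and 0.167).

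LGR4, a receptor of R-spondins that strengthens WNT signalling, led the genes called in cjPSCM only and lower with ActA. It had 2707 and 2789 normalised counts in TESR − ActA, 3081 and 3087 in TESR + ActA, 2587 and 2444 in cjPSCM − ActA, and 823 and 907 in cjPSCM + ActA. The last group alone stood apart. The log2 fold change was 0.16 in TESR (95% interval -0.02 to 0.34) and -1.55 (SE 0.09) in cjPSCM, a difference of 1.71 (SE 0.12, adjusted p = 0.000207 by edgeR, and 0.00318 with 20 libraries). LIN28B, which blocks let-7 maturation in pluripotent cells, fell from 2017 and 1937 to 874 and 920 normalised counts in cjPSCM and had 1587 to 2220 in TESR. Its difference was 0.86 (SE 0.14, adjusted p = 0.00883 by edgeR, and 0.112 with 20 libraries), and the call was lost without replicate 1 of cjPSCM + ActA. SIKE1, CDC42SE2, VMA21 and SACM1L had differences of 1.03, 0.99, 1.00 and 0.90, with every library omitted in turn still called but none called with 20 libraries.

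Names beginning with LOC, which mark genes without a symbol, made up 24.8% of the genes called in cjPSCM only, 5.88% of those called in TESR only, 6.36% of the opposite genes and 16.1% of the genes tested.

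**Figure D3:**
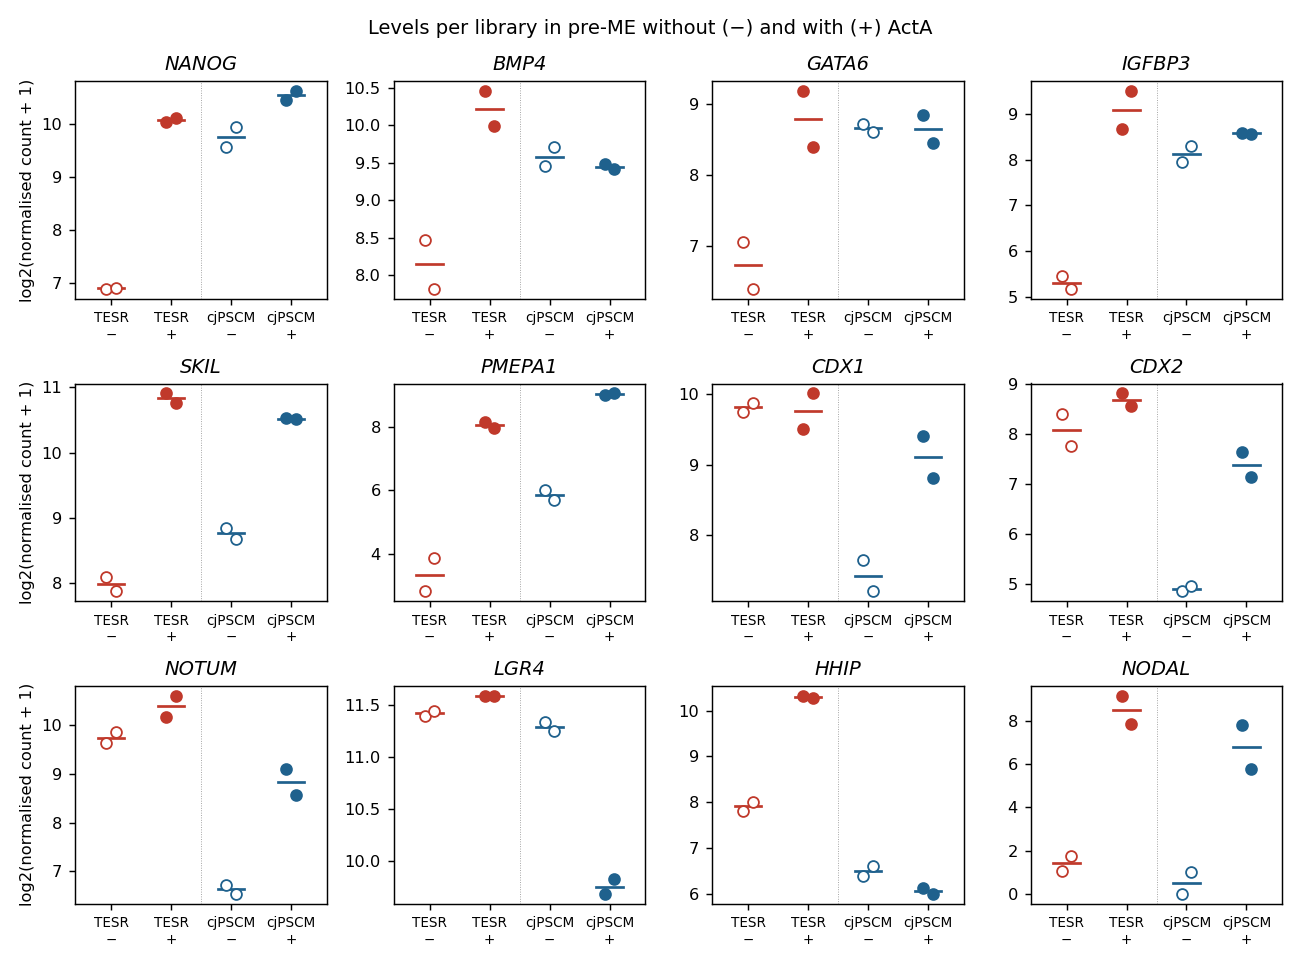
Levels of 12 genes as log2(normalised count + 1) on the y axis, with 1 point per library, open without and filled with ActA, and a bar at the mean of the 2 libraries of each group. NANOG, BMP4, GATA6 and IGFBP3 are lowest in TESR − ActA, CDX1, CDX2 and NOTUM are lowest in cjPSCM − ActA, LGR4 is lowest in cjPSCM + ActA and HHIP is highest in TESR + ActA.

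Genes that moved in opposite directions were led by HHIP, an inhibitor of Hedgehog ligands. It had 224 and 256 normalised counts in TESR − ActA and 1278 and 1234 in TESR + ActA. In cjPSCM it had 83.1 and 97.1 without ActA and 69.3 and 63.2 with ActA. The rise in TESR (log2 fold change 2.38, SE 0.10) was large and the fall in cjPSCM (-0.43, SE 0.15, adjusted p = 0.0489) barely passed. Their difference was 2.81 (SE 0.18, adjusted p = 0.000192 by edgeR, and 0.0121 with 20 libraries).

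PTGER2, a receptor of prostaglandin E2, rose from 108 and 133 to 468 and 494 normalised counts in TESR and fell from 89.0 and 94.1 to 55.1 and 52.0 in cjPSCM. Its difference was 2.76 (SE 0.21, adjusted p = 0.000289 by edgeR, and 0.0227 with 20 libraries). ADM, the gene of the vasoactive peptide adrenomedullin, went from 19.2 in both libraries to 91.9 and 59.4 in TESR and from 185 and 248 to 113 and 94.1 in cjPSCM. The media lay far apart without ActA and close together with it, and the difference was 3.01 (SE 0.35, adjusted p = 0.00433 by edgeR, and 0.0173 with 20 libraries). ISOC1, ZBTB44 and the retinoic acid receptor RARB also rose in TESR and fell in cjPSCM, by smaller amounts, with differences of 1.21, 1.15 and 1.11. These 6 genes were called with every library omitted and with 20 libraries.

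BMP2, a second BMP ligand, had low levels and moved in opposite directions. It had 13.2 and 14 normalised counts in TESR − ActA and 58.6 and 23.9 in TESR + ActA, and 41.3 and 50.5 in cjPSCM − ActA and 14.2 and 9.83 in cjPSCM + ActA. The groups of each medium did not overlap. The difference was 3.45 (SE 0.61, adjusted p = 0.0103 by edgeR, and 0.065 with 20 libraries), lost without replicate 1 of cjPSCM + ActA. With BMP4, 3 of 16 BMP response genes tested had a more positive effect in TESR, and 1, ATOH8, had a more positive effect in cjPSCM. Together they are 25.0% of the list, against 16.2% of the genes tested.

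The reverse, a fall in TESR and a rise in cjPSCM, was seen for NNAT, an imprinted gene of neural tissue, which had 1243 and 1284 normalised counts in TESR − ActA, 837 and 928 in TESR + ActA, 1125 and 1061 in cjPSCM − ActA, and 1757 and 1628 in cjPSCM + ActA. The media were close without ActA and apart with it (difference -1.14, SE 0.12, adjusted p = 0.00329 by edgeR, and 0.0249 with 20 libraries). SAMD14 fell from 356 and 393 to 201 and 240 in TESR and rose from 269 and 184 to 562 and 492 in cjPSCM (difference -1.96, SE 0.23, adjusted p = 0.00433, and 0.00402 with 20 libraries). SOX21, a neural SOX factor, and THY1, a surface protein of pluripotent cells and fibroblasts, had differences of -1.37 and -1.16 but stood at very different levels in the media. SOX21 had 80.7 to 162 normalised counts in TESR and 967 to 1671 in cjPSCM, and THY1 had 135 to 249 and 2253 to 3838. Neither was called with 20 libraries (adjusted p = 0.111 and 0.14), nor were SEL1L3 and ZNF444, with differences of -1.38 and -0.93.

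The gap between the media without ActA and with ActA completes this description. It uses the same libraries as the interaction and is therefore no independent result. Of the 60 genes called in TESR only and higher with ActA, 37 were at least 2-fold lower in TESR than in cjPSCM without ActA at an adjusted p under 0.05 (6.27% of all genes tested), and 9 were so with ActA (7.74%). NANOG had the same pattern, with TESR minus cjPSCM at -2.90 without and -0.48 with ActA. Of the 123 genes called in cjPSCM only and higher with ActA, 26 were higher in TESR without ActA (4.32% of all genes), and 55 were lower in TESR with ActA. Of the 103 called in cjPSCM only and lower with ActA, 47 were higher in TESR with ActA (5.13% of all genes).

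**Figure D4:**
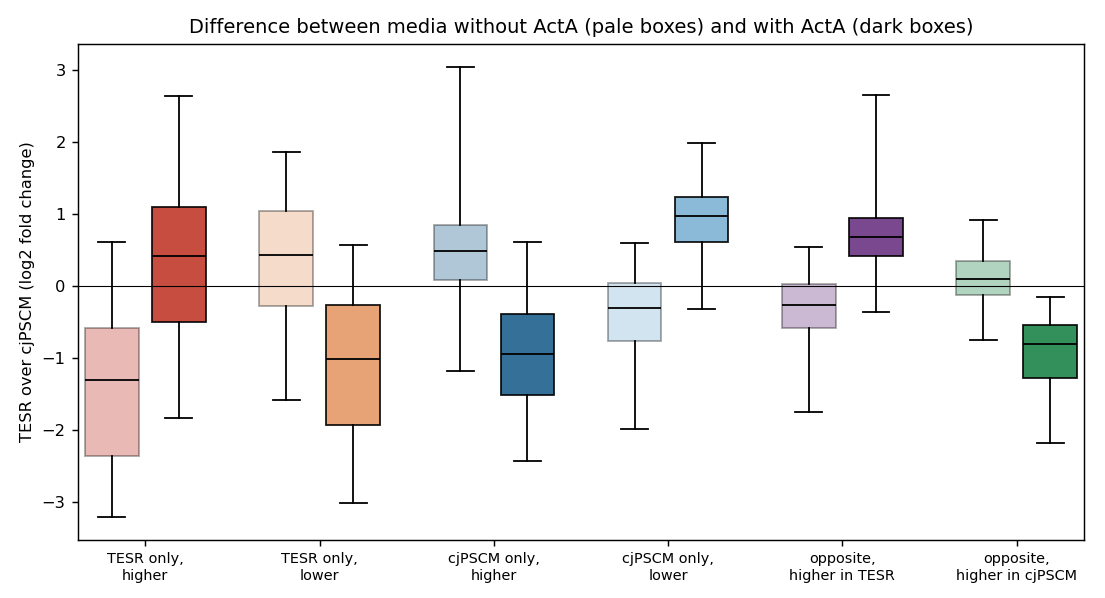
Log2 fold change of TESR over cjPSCM pre-ME (y axis) without ActA (pale boxes) and with ActA (dark boxes) for the 6 groups of genes called in 1 medium only or in opposite directions, with the median, the quartiles and whiskers at the 5th and 95th percentiles of genes. The dark minus the pale box reflects the interaction that chose the genes, and of the 60 genes called in TESR only and higher, 37 were at least 2-fold lower in TESR without ActA and 9 with ActA.

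Genes of the pathway itself responded in both media. NODAL, the embryonic ligand of the same receptors, was at 5 counts or fewer in all 4 libraries without ActA. With ActA it had 564 and 228 normalised counts in TESR and 224 and 53.4 in cjPSCM. Its difference of -0.61 had a 95% interval of -7.46 to 6.24 (adjusted p = 0.915 by edgeR), so that no difference between media was detectable at this depth. Of 11 antagonists and feedback targets tested, 7 were higher with ActA in TESR and 6 in cjPSCM (4.18% and 5.62% of all genes). The median log2 fold changes of the 11 were 2.14 and 1.61. SMAD7, the inhibitory SMAD, rose by 2.38 and 2.56, and FSTL3, which binds Activin, by 2.14 and 2.13, with differences of -0.18 (SE 0.23) and 0.0027 (SE 0.25) that did not pass.

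In 4 of the 11 the effect was more positive in TESR, and in DRAP1 it was more positive in cjPSCM, together 45.5% of the list against 16.2% of the genes tested. The median difference was 0.22, against -0.0034 over all genes. SKIL, a repressor of SMAD proteins, had 274 and 234 normalised counts in TESR − ActA, 1918 and 1727 in TESR + ActA, 459 and 410 in cjPSCM − ActA, and 1472 and 1462 in cjPSCM + ActA. PMEPA1, which limits SMAD phosphorylation, had 6.03 and 13.6, 284 and 248, 63.1 and 50.5, and 512 and 531. Both were lower in TESR than in cjPSCM without ActA and rose in both media.

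The differences were 1.10 for SKIL (SE 0.14, adjusted p = 0.00568), 1.55 for PMEPA1 (SE 0.33, adjusted p = 0.0168) and 0.68 for FST, which encodes follistatin (SE 0.20, adjusted p = 0.0464), all by edgeR. None of these was called with 20 libraries (adjusted p = 0.109, 0.192 and 0.511). SKIL was kept with every library omitted, whereas PMEPA1 lost its call without replicate 1 of TESR − ActA or replicate 1 of cjPSCM + ActA, and FST in 6 of the 8 fits. Of the ligands, GDF3 moved in opposite directions (log2 fold change 1.24 in TESR and -1.04 in cjPSCM, difference 2.28, SE 0.50, adjusted p = 0.0182 by edgeR, and 0.126 with 20 libraries). GDF1, which shares a transcript with CERS1 in other mammals so that their counts may not be separable, changed in cjPSCM, with 363 in both libraries without ActA and 738 and 659 with ActA, and had 361 to 382 normalised counts in TESR (difference -0.92, SE 0.13, adjusted p = 0.00622 by edgeR, and 0.192 with 20 libraries). Of 8 receptors and SMADs tested, 3 were called in the interaction (37.5%, beside 16.2% of all genes). These were ACVR2A, TGFBR1 and SMAD2, all with a more positive effect in TESR, as in 8.61% of all genes. Their differences were 0.76, 0.65 and 0.45, and none was called with 20 libraries. CER1 and GSC fell below the filter on low counts, and no gene in the counts bore the name LEFTY1 or LEFTY2.

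**Figure D5:**
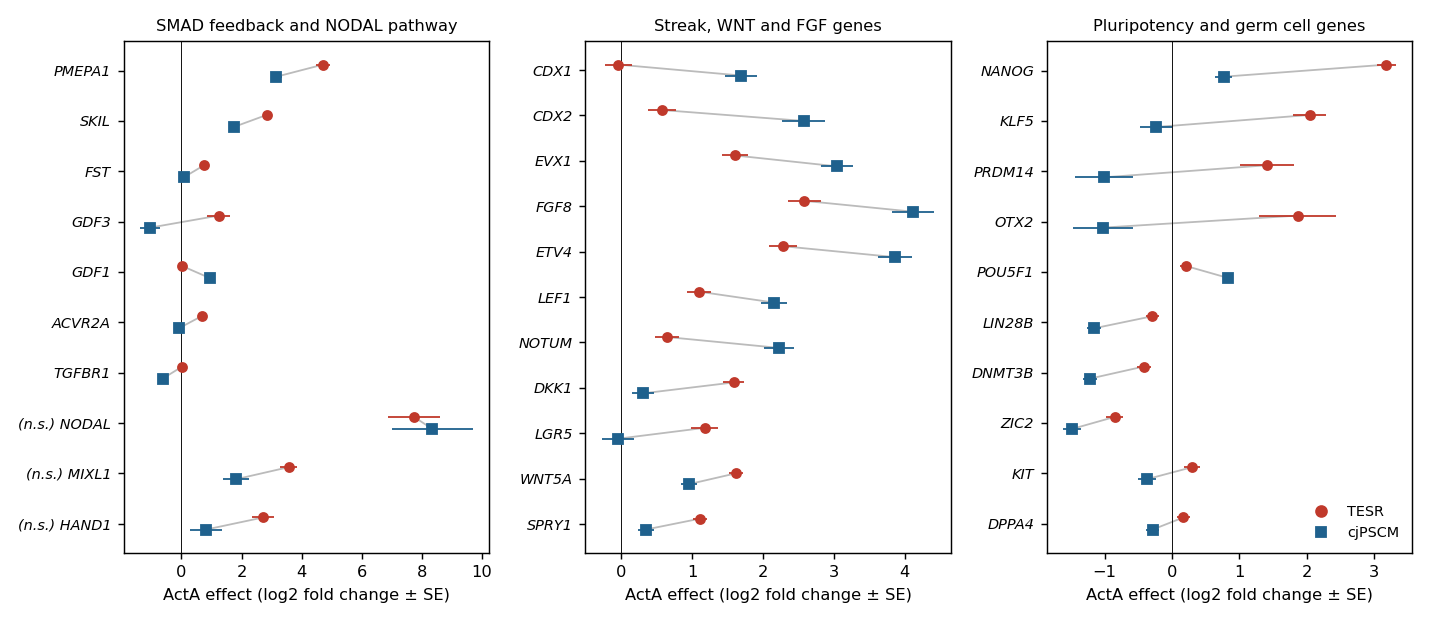
ActA effect in TESR (red circles) and cjPSCM pre-ME (blue squares) as log2 fold change on the x axis, for genes in 3 panels. The standard error was derived from the F statistic of edgeR. Genes marked n.s. did not pass the interaction test. PMEPA1, SKIL and NANOG had the larger effect in TESR, and CDX1, CDX2, EVX1, FGF8, ETV4, LEF1 and NOTUM had the larger effect in cjPSCM.

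Of 16 streak factors tested, 4 were called in the interaction (25.0%, beside 16.2% of all genes), namely CDX1, CDX2, EVX1 and FGF8. All 4 had the more positive effect in cjPSCM, as 7.61% of all genes did, and of the 4 only CDX1 was called with 20 libraries. EVX1, a posterior homeobox factor, had 547 and 403 normalised counts in TESR − ActA, 1466 and 1426 in TESR + ActA, 111 and 70.3 in cjPSCM − ActA, and 904 and 642 in cjPSCM + ActA. FGF8, the FGF ligand of the streak, had 173 and 105, 825 and 832, 43.6 and 23.8, and 730 and 510. Both rose in each medium from a lower start in cjPSCM, with differences of -1.44 (SE 0.29, adjusted p = 0.0154 by edgeR) and -1.54 (SE 0.39, adjusted p = 0.0273 by edgeR). ETV4, a target of FGF signalling, rose by 2.29 in TESR and 3.86 in cjPSCM (difference -1.57, SE 0.32, adjusted p = 0.0153 by edgeR). None of the 3 was called with 20 libraries (adjusted p = 0.252, 0.11 and 0.0587), and EVX1 and ETV4 lost their calls without replicate 1 of cjPSCM + ActA and FGF8 in 5 of the 8 fits.

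Several fixed genes of the treatment's pathway did not pass the interaction test with the filter on low counts. EOMES, a T-box factor of mesendoderm, had 169 and 142 normalised counts in TESR − ActA, 641 and 267 in TESR + ActA, 8.84 and 3.96 in cjPSCM − ActA, and 39.2 and 22.5 in cjPSCM + ActA. The media differed in level, but the difference in effect was -0.66 (95% interval -2.61 to 1.30, adjusted p = 0.646 by edgeR). MIXL1, a homeobox factor of mesendoderm, had 9.33 and 6.08, 87.6 and 95.5, 4.13 and 4.95, and 19.2 and 11.2, and HAND1, a factor of lateral and extraembryonic mesoderm, 14.8 and 10.3, 111 and 55.2, 8.25 and 11.9, and 16.7 and 18.3. Their differences were 1.75 (SE 0.58, adjusted p = 0.0633 by edgeR) and 1.90 (SE 0.65, adjusted p = 0.0721 by edgeR). Without the filter on low counts both passed (adjusted p = 0.0265 and 0.00129). SOX17, an endoderm and germ cell factor, had a difference of 0.76 (95% interval -0.33 to 1.85, adjusted p = 0.313 by edgeR), FOXA2, of definitive endoderm, one of 0.01 (-2.32 to 2.34), and TBXT one of 1.5 (-2.54 to 5.54). SOX17 passed without the filter (adjusted p = 0.00657), and its difference became -0.047 without replicate 1 of TESR + ActA.

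Of 14 WNT feedback genes tested, 3 had a more positive effect in TESR (DKK1, LGR5 and TNFRSF19) and 3 in cjPSCM (NOTUM, LEF1 and TCF7), together 42.9% of the list beside 16.2% of all genes (8.61% and 7.61% by direction). DKK1, a secreted WNT inhibitor, had 1242 and 885 normalised counts in TESR − ActA, 2921 and 3484 in TESR + ActA, 870 and 956 in cjPSCM − ActA, and 1207 and 1065 in cjPSCM + ActA. NOTUM, which removes the lipid of WNT proteins, had 795 and 918, 1151 and 1544, 105 and 92.1, and 549 and 379. DKK1 was thus highest in TESR + ActA, and NOTUM lowest in cjPSCM − ActA. The differences were 1.28 for DKK1 (SE 0.22, adjusted p = 0.00905 by edgeR, and 0.164 with 20 libraries) and -1.58 for NOTUM (SE 0.27, adjusted p = 0.0091, and 0.012 with 20 libraries). LEF1, a transcription factor of the pathway, rose in both media, by 1.09 and 2.15, with a difference of -1.06 (SE 0.24, adjusted p = 0.0209 by edgeR, and 0.177 with 20 libraries). The calls of DKK1 and NOTUM were lost without replicate 1 of cjPSCM + ActA, and that of LEF1 in 4 of the 8 fits. Among 11 WNT ligands tested, WNT5A alone was called (9.09%, beside 16.2% of all genes). It had a difference of 0.67 (SE 0.14, adjusted p = 0.0182 by edgeR, and 0.173 with 20 libraries). This call was lost without any 1 of the 4 TESR libraries.

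Of 16 NOTCH genes tested, 7 were called (43.8%, beside 16.2% of all genes). All 7 had a more positive effect in cjPSCM, as 7.61% of all genes did, and the median difference was -0.60, against -0.0034 over all genes. JAG2, a NOTCH ligand, had 447 and 386 normalised counts in TESR − ActA, 654 and 534 in TESR + ActA, 610 and 547 in cjPSCM − ActA, and 1949 and 1962 in cjPSCM + ActA. The libraries of cjPSCM + ActA lay far above the other 6 (difference -1.24, SE 0.16, adjusted p = 0.00565 by edgeR, and 0.0286 with 20 libraries). JAG1, another NOTCH ligand, fell in TESR by 0.35 and rose in cjPSCM by 0.43 on the log2 scale. The receptors NOTCH1 and NOTCH3 were called in cjPSCM only, with differences of -0.90 and -0.82. HEY1, a target of the receptors, had a difference of -0.80. NOTCH1 lost its call in 4 of the 8 fits, NOTCH3 in 6 and HEY1 in 3. DLL1, a further ligand, fell in both media, more in TESR (-2.08 and -0.72), and NRARP completes the 7. With 20 libraries JAG2 alone was called.

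Of 17 pluripotency genes tested, 8 had a more positive effect in TESR and 1 in cjPSCM, beside 8.61% and 7.61% of all genes. Together they are 52.9% of the list, beside 16.2%, and the median difference was 0.61, against -0.0034 over all genes. NANOG was the only one of them called with 20 libraries. OTX2, a factor of primed cells, had 26.9 and 13.6 normalised counts in TESR − ActA, 115 and 31.8 in TESR + ActA, 259 and 372 in cjPSCM − ActA, and 119 and 198 in cjPSCM + ActA. PRDM14, a regulator of pluripotency and germ cells, had 12.6 and 6.08, 31.2 and 18.0, 34.2 and 26.7, and 18.4 and 11.2. With ActA, the PRDM14 libraries overlapped between media. Those of OTX2 did not, and its 2 TESR + ActA libraries lay far apart, at 115 and 31.8. For both genes, the groups did not overlap within a medium. Their differences were 2.90 (SE 0.73, adjusted p = 0.0268 by edgeR) and 2.42 (SE 0.59, adjusted p = 0.0248 by edgeR), called neither with 20 libraries nor in every fit with a library omitted, as they were lost in 3 and 4 of the 8 fits.

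DNMT3B, ZIC2 and LIN28B had lower levels with ActA, and the drop was larger in cjPSCM, with log2 fold changes of -1.21, -1.48 and -1.15 against -0.42, -0.85 and -0.29 in TESR. POU5F1, which encodes OCT4, was the gene with the more positive effect in cjPSCM. It had 1435 to 1706 normalised counts in TESR, 1645 and 1668 in cjPSCM − ActA, and 2915 and 3035 in cjPSCM + ActA (difference -0.63, SE 0.11, adjusted p = 0.00958 by edgeR, and 0.206 with 20 libraries). Of 12 germ cell specifiers tested, 2 were called in the interaction (16.7%), both with a more positive effect in TESR, as in 8.61% of all genes.

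Other lists were nearer to the background or rested on few genes. TFAP2A, a factor of amnion and surface ectoderm, fell in both media, from 66.4 and 62.2 to 14.2 and 17.5 normalised counts in TESR and from 187 and 198 to 24.2 and 15.4 in cjPSCM (difference 1.21, SE 0.32, adjusted p = 0.0335 by edgeR, and 0.362 with 20 libraries), a call lost in 6 of the 8 fits with a library omitted. ISL1, of amnion and lateral mesoderm, rose in both, from 207 and 223 to 934 and 918 in TESR and from 59.5 and 62.4 to 126 in both cjPSCM libraries (difference 1.06, SE 0.16, adjusted p = 0.0065 by edgeR, and 0.0977 with 20 libraries). The summed level of the 10 amnion and surface ectoderm markers with counts, IGFBP3 and ISL1 among them, went from 869 and 830.5 to 2286 and 2395 normalised counts in TESR and from 1511 and 1805 to 2369 and 2635 in cjPSCM. Such a sum follows its most abundant members. Over the 7 of these markers tested, TFAP2A among them, the median log2 fold change was 0.06 in TESR and 0.44 in cjPSCM. The part of a change in cell types in these results was not tested.

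Of 18 extracellular matrix genes tested, 4 were called (22.2%, beside 16.2% of all genes), none of them with 20 libraries. COL4A1, a collagen of the basement membrane, had 3724 and 3435 normalised counts in TESR − ActA, 6763 and 5741 in TESR + ActA, 9201 and 7595 in cjPSCM − ActA, and 26173 and 26217 in cjPSCM + ActA (difference -0.83, SE 0.16, adjusted p = 0.0122 by edgeR). COL4A2, which is transcribed from the same promoter region, had a difference of -1.07 (SE 0.19, adjusted p = 0.0107 by edgeR). The fibrillar COL3A1 went the other way, with 98.2 and 80.9 to 244 and 193 in TESR and 127 and 166 to 81.8 and 126 in cjPSCM (difference 1.81, SE 0.31, adjusted p = 0.00958 by edgeR). The calls of these 3 collagens were lost without replicate 1 of cjPSCM + ActA. The summed level of 7 fibroblast markers, COL3A1 and THY1 among them, was 2342 to 2726 without and 3339 to 4277 with ActA in TESR. In cjPSCM it was 4279 to 4674 and 6104 to 6271. The median log2 fold change of the 7 genes was 0.37 in TESR and 0.07 in cjPSCM. There COL3A1, DCN and LUM had lower levels with ActA, and COL1A1, COL1A2 and THY1 higher ones. The part of fibroblasts in the result was not tested.

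Of 22 HOX genes tested, none was called in the interaction by edgeR, although 8 were higher with ActA in TESR, and 6 were higher and 1 lower in cjPSCM (4.18%, 5.62% and 3.62% of all genes). At an unadjusted p under 0.05 there were 4, beside 32.9% of all genes, and their differences ranged from -2.60 to 4.63 over the list at mostly low counts. The interaction was called for 4 of 20 mesoderm regulators (20%), 3 of 12 endoderm regulators (25.0%), 3 of 19 FGF ligands and ERK feedback genes (15.8%), 3 of 12 genes of retinoic acid metabolism (25.0%) and 3 of 11 cadherin and epithelial genes (27.3%), which were counts of few genes beside the 16.2% of all genes.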

How the data were processed

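Poly(A) RNA libraries (NEBNext Ultra II) of 20 samples were sequenced as paired ends by the authors, who mapped reads to calJac4 with STAR 2.7.0a and counted them per gene with HTSeq 0.11, after FastQC 0.11.8. The annotation release and the strand setting are not given in the sources used here. The deposited table holds raw counts per gene, which entered the tests. A second deposited table holds normalised values, called normalised counts here, a signal that the authors obtained by dividing counts by DESeq2 size factors, and it gave the levels printed. Lines for reads outside genes (17.2% to 20.6% of reads in the 8 libraries) and ambiguous reads were left out.

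The 8 pre-ME libraries were fitted with edgeR 4.0.16 in R 4.3.3 (TMM, filterByExpr by group, 1 coefficient per group, 4 residual degrees of freedom, quasi-likelihood F-test), with Benjamini-Hochberg adjustment over 15491 genes. The test itself prints no standard error (SE). Each SE was computed as the absolute log2 fold change divided by the square root of its F statistic. The 95% intervals were formed from this SE and a t quantile. With 2 libraries a group, p-values measure only the spread between these cultures of 1 line. Figures used matplotlib 3.10.9 and pandas 2.3.3 (Python 3.11.15).

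Alternatives were DESeq2 1.42.0, DESeq2 size factors in edgeR, no filter, a filter at a mean of 1 CPM, all 20 libraries, the replicate number as a block, counts thinned to 8193936 per library, and each library left out. A replicate block within each medium and glmTreat against a log2 difference of 1 were added after seeing the data. Members, gene lists and rules were chosen with earlier results of these data known. Named were, in each of the 6 groups of genes called in 1 medium only or in opposite directions, the 5 symbols with the lowest interaction adjusted p, list members called in the interaction, and 12 fixed genes of the treatment's pathway. No sequences are printed. Results for some genes are not reported here.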

Additional observations from a re-analysis of the deposited data

Results flagged for a closer look

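The effect of ActA differed between the 2 starting media, by a test of the difference itself on 8 libraries, for 1334 genes with the more positive effect in TESR pre-ME and 1179 with the more positive effect in cjPSCM pre-ME. In the fit on 20 libraries these counts were 38 and 25. Of the named genes, 21 differed both with 8 and with 20 libraries in the fit. Those with the more positive effect in TESR were ADM (log2 difference 3.01), HHIP (2.81), PTGER2 (2.76), NANOG (2.42), GATA6 (2.10), PMAIP1 (1.93), SLC6A15 (1.74), LGR4 (1.71), ISOC1 (1.21), ZBTB44 (1.15), RARB (1.11) and FZD8 (1.08). In cjPSCM the effect was more positive for LRRTM1 (-2.92), SAMD14 (-1.96), COLEC12 (-1.94), RAPGEF5 (-1.74), CDX1 (-1.73), NOTUM (-1.58), PLPP3 (-1.47), JAG2 (-1.24) and NNAT (-1.14). Of these 21 genes, GATA6, CDX1 and NOTUM lost their calls without replicate 1 of cjPSCM + ActA, and the other 18 kept them with every library left out in turn.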

How the results depend on the processing

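The counts of interaction genes changed most with the libraries in the fit. With all 20 libraries there were 38 and 25 calls (more positive in TESR and in cjPSCM), 298 genes lower with ActA in TESR, 17 and 5 genes called in TESR only (higher and lower), 8 and 5 in cjPSCM only, and 7 and 3 opposite. Leaving out 1 library at a time gave 71 to 2192 and 61 to 2159 interaction calls, 501 to 674 and 314 to 496 genes higher and lower in TESR, 603 to 959 and 367 to 639 in cjPSCM, 14 to 71 and 9 to 58 in TESR only, 16 to 217 and 6 to 206 in cjPSCM only, and 11 to 158 and 7 to 153 opposite. The lowest of these came without replicate 1 of cjPSCM + ActA, or replicate 2 of TESR − ActA (501, 314 and 7), and the highest without replicate 1 of cjPSCM − ActA, or its replicate 2 (496). Opposite genes numbered 35 and 24 with DESeq2, 105 and 78 without the filter, and 28 in the second direction (down in TESR) after thinning. DESeq2 called 1165 and 1120 genes, and edgeR with DESeq2 size factors in place of TMM called 1303 and 1181. Against a log2 difference of 1, glmTreat called 7 and 0 genes at an adjusted p under 0.05. At the same threshold the quasi-likelihood test of edgeR called 2513 genes, 496 of them with a difference beyond 1. It gave 5091 genes at an unadjusted p under 0.05. The 7 were EDN1, HHIP, IGFBP3, LGR4, LOX, NANOG and PTGER2.

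The labels do not say that a replicate number marks a shared batch, or that both media were handled together. In the list of samples the TESR pre-ME libraries form a block apart from the cjPSCM ones. A difference in the ActA effect between experiments therefore cannot be told apart from one between media. Replicate differences of same-numbered groups correlated at 0.225 within TESR and 0.236 within cjPSCM, but at -0.055 to -0.0068 between media. With the replicate block 1448 and 1303 genes were called, and with a block within each medium 2557 and 2528, with 304 and 200 opposite genes and 2 residual degrees of freedom.

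Of the named genes, NODAL changed sign to 0.05, 0.62 and 0.85 (range -3.17 to 0.85), FOXA2 to -0.24, -0.14, -0.22 and -0.58 (range -0.58 to 0.58) and SOX17 to -0.047 (range -0.047 to 1.27) with 1 library left out, none of them called where the sign changed. No other direction was reversed among the named genes. Of the 97 named genes with an interaction call, 96 were tested with 20 libraries and 75 lost the call there, and 58 of the 97 lost it without replicate 1 of cjPSCM + ActA. The common dispersion was 0.0203 with 20 libraries and 0.00757 with 8, and the cause of the losses was not tested. Counts of 2 libraries a group limit every statement on genes called in 1 medium only.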

Other observations

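Some genes outside the naming rule differed strongly and were chosen after their values were seen. LOX, the lysyl oxidase that cross-links collagen, had 133 and 226 normalised counts in TESR − ActA, 3239 and 5056 in TESR + ActA, 744 and 872 in cjPSCM − ActA, and 1419 and 1636 in cjPSCM + ActA, a log2 difference of 3.6 (SE 0.35, adjusted p = 0.00194 by edgeR, and 0.00402 with 20 libraries). EDN1, the vasoconstrictor endothelin, had 23.6 and 27.6, 804 and 845, 278 and 352, and 1107 and 1243, with a difference of 3.09 (SE 0.21, adjusted p = 0.000192 by edgeR, and 0.065 with 20 libraries). Both were lowest in TESR − ActA and rose in both media. NKX2-3, a homeobox factor of gut mesoderm, rose far more in cjPSCM, with 28.0 and 16.4 to 102 and 133 in TESR and 29.5 and 30.7 to 1133 and 1288 in cjPSCM (difference -2.90, SE 0.34, adjusted p = 0.00433 by edgeR, and 0.0154 with 20 libraries). BCL6, a transcriptional repressor, had a difference of -1.37 (SE 0.19, adjusted p = 0.00622 by edgeR, and 0.0249 with 20 libraries), with 567 and 577 normalised counts in cjPSCM + ActA against 65.5 to 156 in the other groups. These 4 genes were called with every library left out in turn.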
